A study of Mus musculus with 4 samples.

Results

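The 10 genes described here are 5 of the CCN family, Ctgf, Cyr61, Nov, Wisp1 and Wisp2 (newer names Ccn2, Ccn1, Ccn3, Ccn4 and Ccn5), and 5 of the Hippo pathway and its nuclear arm, Yap1, Wwtr1, Tead1, Lats2 and Amotl2. Their probes were found by the gene name in the array files, under the older or the newer symbol, which gave 14 probes of the 55675 on every array and 10 genes of the 16542 kept. They were followed in cardiac mesenchymal progenitors (CMPs), Sca-1+ cells from the hearts of adult C57BL/6 mice. RNA came from untreated CMPs, labelled day 0, and from CMPs that received Oct4, Sox2, Klf4 and c-Myc (OSKM-CMPs) and were collected at day 4, day 6 or day 8. By the study's methods the factors were carried by Sendai virus and the infected cells were moved to a reprogramming medium without leukemia inhibitory factor. No array of cells given virus alone, and no later untreated array, was used here, so that the factors, the virus, the medium and the time in culture cannot be told apart. Each condition had 1 array and no replicate, and the days share the same control array.

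Because there were no replicates, differences were set only against the scanner software's error for a spot, and no p-value was computed. That error was about 0.20 (1 SD, log2) for a difference of 1 probe between 2 arrays and covers neither the culture nor the RNA preparation. A gene was called when it changed at least 2-fold. The genes were selected on their log2 changes on these same arrays, so their change from the control is given as a description. In a whole culture, fewer cells of a type and less RNA per cell cannot be told apart. The software's flag put 31495 to 33210 probes of an array well above background, 0 spots were saturated, and the 75th percentile of the signal lay between 388.5 and 410.9.

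CCN proteins are secreted matricellular proteins, which sit in the extracellular matrix and bind integrins, proteoglycans and growth factors. Ctgf and Cyr61 are textbook targets of YAP and TAZ, the coactivators encoded by Yap1 and Wwtr1, which bind DNA through TEAD factors such as the product of Tead1. The Hippo kinases, with LATS2 at the end of the chain, phosphorylate YAP and TAZ and keep them out of the nucleus, and angiomotin proteins such as AMOTL2 hold them in the cytoplasm. In mesenchymal cells YAP and TAZ are known to respond to cell shape, matrix stiffness and serum, and Lats2 and Amotl2 are themselves targets that feed back on the pathway. RNA levels do not report where YAP and TAZ proteins were or how they were phosphorylated.

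Promoter sequence shows where the letters bound by TEAD factors stand in these genes. RefSeq windows (build GRCm38.p6) were at hand for 5 of the 10 genes, Cyr61, Amotl2, Yap1, Wwtr1 and Lats2. The 250 bases before the annotated start were searched on both strands for the TEAD core, GGAATG, and 4 of the 5 genes held it. The core stood in 12.6% of the same stretch of 32851 RefSeq windows. Each of the 4 is printed 5' to 3' on the gene's strand, with the core, or CATTCC where it lies on the other strand, in capitals.
Cyr61: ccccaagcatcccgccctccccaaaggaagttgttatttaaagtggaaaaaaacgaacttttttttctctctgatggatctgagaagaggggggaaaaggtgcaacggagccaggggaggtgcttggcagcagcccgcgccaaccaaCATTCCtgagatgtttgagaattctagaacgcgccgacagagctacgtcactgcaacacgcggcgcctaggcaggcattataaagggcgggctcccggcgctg
Amotl2: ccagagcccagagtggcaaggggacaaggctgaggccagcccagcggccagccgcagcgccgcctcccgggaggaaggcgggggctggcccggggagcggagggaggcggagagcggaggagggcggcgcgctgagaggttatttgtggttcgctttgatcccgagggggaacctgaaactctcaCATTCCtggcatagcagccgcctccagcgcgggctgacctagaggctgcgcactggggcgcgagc
Wwtr1: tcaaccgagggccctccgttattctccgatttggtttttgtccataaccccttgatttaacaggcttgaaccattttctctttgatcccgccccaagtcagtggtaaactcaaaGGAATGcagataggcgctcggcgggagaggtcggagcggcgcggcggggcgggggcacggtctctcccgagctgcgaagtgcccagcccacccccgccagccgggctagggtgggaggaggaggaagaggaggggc
Yap1: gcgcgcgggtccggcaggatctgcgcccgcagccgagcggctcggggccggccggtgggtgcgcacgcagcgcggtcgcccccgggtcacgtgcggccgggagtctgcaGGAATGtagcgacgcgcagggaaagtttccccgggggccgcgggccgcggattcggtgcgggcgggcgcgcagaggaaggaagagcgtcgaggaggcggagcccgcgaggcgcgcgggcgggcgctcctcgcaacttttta
These stretches are chr3:145649986-145650235 (minus strand) for Cyr61, chr9:102717554-102717803 (plus strand) for Amotl2, chr3:57575911-57576160 (minus strand) for Wwtr1 and chr9:8004597-8004846 (minus strand) for Yap1. The first base of the core was at position -103 in Cyr61, -65 in Amotl2, -136 in Wwtr1 and -141 in Yap1, counted back from the start. Wwtr1 had 2 overlapping windows that hold the same core, and neither of the 2 Lats2 windows had the letters before the start. Over the full 300 bases of the window, which runs past the start, 1 of the 2 Lats2 windows held the core. The AP-1 letters TGANTCA, in 6.75% of all such stretches, and the CArG box, in 1.47%, were found in none of these members' windows before the start. A match is a run of letters and no evidence of binding. Of the 4 genes with the core before the start, Cyr61, Amotl2 and Wwtr1 fell at least 2-fold at day 8 and Yap1 did not. Lats2, without it in that stretch, fell as well. The relation of the core to these changes was not tested.

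From the control to day 8, 9 of the 10 genes fell at least 2-fold, beside 11.6% of all 16542 genes. The log2 change was -6.00 for Wisp2, -3.89 for Ctgf and -3.47 for Cyr61. Yap1 alone was within 2-fold, with a log2 change of 0.04 ± 0.20. At day 4, 8 of the 10 had fallen, beside 9.59% of all genes, and at day 6, 9 had, beside 11.5%. None of the 10 rose on any of these days, when 12.0%, 13.0% and 14.4% of all genes did. Since the genes were chosen for these changes, the counts describe them and carry no test. The median change of all genes was -0.01, -0.04 and -0.03 at days 4, 6 and 8, and that of the 10 genes was -1.45, -1.45 and -1.56. All 14 probes were well above background on all 4 arrays, and 13 of them were lower than the control on all 3 days. From the control to day 8, the summed signal of smooth muscle markers went from 601 to 26.3 times the array's 75th percentile and that of adipocyte markers from 2.49 to 311, and their part in these changes was not tested.

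**Figure D1:**
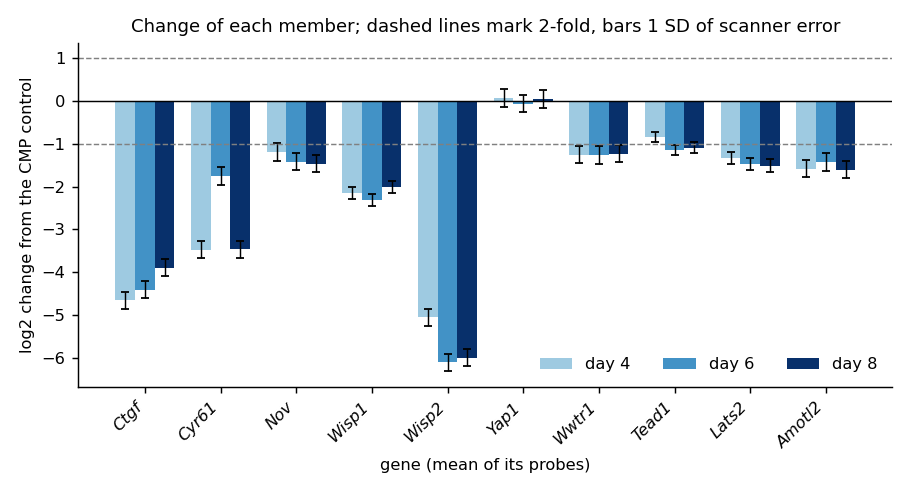
Log2 change of each of the 10 genes from the CMP control array to the OSKM-CMP arrays at days 4, 6 and 8, as the mean of the gene's probes; error bars are 1 SD of the scanner error and dashed lines mark 2-fold. At day 8 the bars run from -6.00 for Wisp2 to 0.04 for Yap1, and those of Wisp2, Ctgf and Cyr61 reach lower than the rest.

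Wisp2, a CCN protein that lacks the C-terminal domain of the others and is made by mesenchymal and adipose precursor cells, fell furthest. Its processed signal, the background-subtracted Cy3 intensity before scaling between arrays, was 48486 in the control and then 1455, 733 and 801 on the OSKM-CMP arrays of days 4, 6 and 8. The log2 changes from the control, after scaling to the 75th percentile, were -5.06, -6.11 and -6.00 (each ± 0.20), and at day 8 the control was 63.9-fold higher. Only 9 of the 16542 genes had a lower change at day 8, where Wisp2 ranked 10 from the bottom. Of its change at day 8, 84.3% was already there at day 4. The probe is at chr2:163658717-163658776 (mm9, plus strand).

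Ctgf, connective tissue growth factor, a matrix protein linked to fibrosis, was the next lowest. The processed signal was 146840 in the control, against 5787, 7215 and 10438 over the OSKM-CMP days. It had its lowest value at day 4 and stood higher on each later array, though far under the control. The log2 changes were -4.66, -4.41 and -3.89 (each ± 0.20), or 14.8-fold at day 8. Its rank from the bottom moved from 38 at day 4 to 110 at day 8. The change of Wisp2 was lower than that of Ctgf by -0.39 at day 4 and by -2.11 at day 8 (± 0.29). The probe is at chr10:24318281-24318340 (mm9, plus strand).

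Cyr61, an angiogenic CCN protein that is also an immediate early gene, had a log2 change of -3.47 at day 4 and of -3.47 again at day 8, and stood nearer the control on the day between. From a processed signal of 22236 in the control it went to 1998 at day 4, reached 6890 at day 6 and was 2119 by day 8. The day 6 array was thus higher than both of its neighbours, and the control was higher than all 3. The log2 change at day 6 was -1.75 ± 0.20, and at day 8 the control was 11.1-fold higher. At day 6 the change of Ctgf was lower than that of Cyr61 by -2.66, against -0.42 at day 8 (± 0.29 each). The probe is at chr3:145310187-145310246 (mm9, minus strand).

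At days 4 and 8 Wisp1 and Nov fell less far than the other CCN genes, and at day 6 Wisp1 stood lower than Cyr61. Wisp1, a CCN protein first known as a WNT1-induced gene, has 2 probes, with processed signals of 3698, 826, 847 and 1043 on one and 1372, 308, 265 and 336 on the other, in the order control, day 4, day 6 and day 8. The probes changed by -1.90 and -2.11 at day 8, and the gene changed by -2.16, -2.31 and -2.01 over the days (± 0.14), 4.01-fold at the last. They lie at chr15:66754637-66754696 and chr15:66750958-66751017 (mm9, plus strand). Nov, a CCN protein that opposes CTGF in some cells, gave 549, 239, 214 and 210 in the same order. Its log2 changes were -1.19, -1.42 and -1.46 (each ± 0.20), and at day 8 the control was 2.76-fold higher. On that day Wisp1 changed further than Nov by -0.54 ± 0.25. The Nov probe is at chr15:54584204-54584263 (mm9, plus strand). All 5 CCN genes fell at least 2-fold on each of the 3 days, with medians of -3.47, -2.31 and -3.47 in turn. The sixth CCN gene, Wisp3, was at no time well above background.

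**Figure D2:**
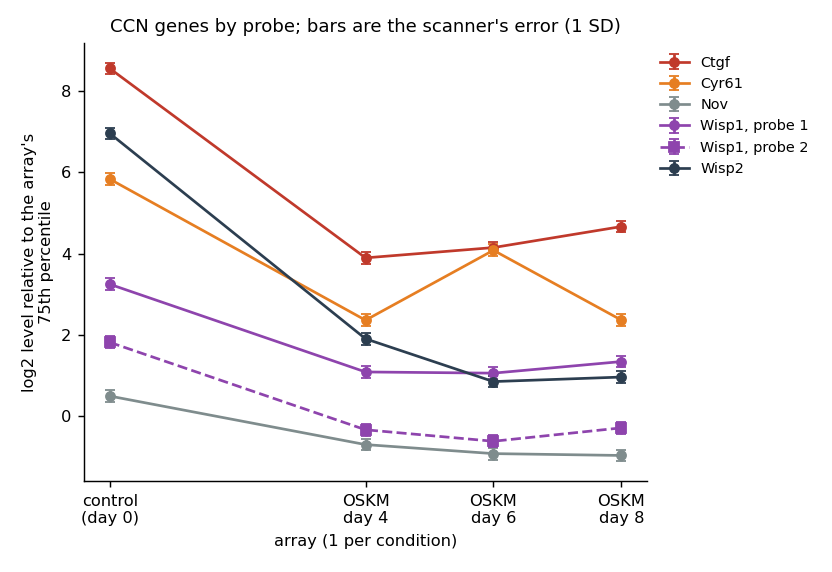
Log2 level of each probe of the 5 CCN genes relative to the array's 75th percentile, on the control array and at days 4, 6 and 8, with bars for the scanner error (1 SD). Every line drops between the control and day 4, and Cyr61 rises at day 6 and returns at day 8; distances between lines of different probes are not comparable.

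The coactivators did not move alike. Yap1 gave processed signals of 17042 in the control and of 17932, 17032 and 18542 over the days. Its log2 changes, 0.08, -0.06 and 0.04, lay within their error of 0.20 on each day, and its sign turned with the scaling, from -0.22 with the array median as the scale to 0.33 with quantile normalization at day 8. Wwtr1, which encodes TAZ, the paralog of YAP, gave 4584, 1918, 1993 and 2065. Its changes were -1.25, -1.26 and -1.23 (each ± 0.20), or 2.34-fold at day 8. The 3 OSKM-CMP arrays lay close together, and all were under the control. The change of Wwtr1 minus that of Yap1 was -1.27 ± 0.29 at day 8. The Yap1 probe is at chr9:7932025-7932084 and the Wwtr1 probe at chr3:57259999-57260058 (mm9, both on the minus strand).

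Tead1, the DNA-binding partner, changed by -0.83, -1.14 and -1.09 (each ± 0.12), so that it passed 2-fold at days 6 and 8 and not at day 4. Its 3 probes gave 8722, 4681, 4453 and 4840, then 303, 178, 130 and 153, then 138, 76.6, 66.9 and 60.1, each from the control to day 8. Every probe was highest in the control. At day 8 the probes changed by -0.93, -1.06 and -1.27, and the first and brightest of them was within 2-fold. With normexp background correction and quantile normalization the gene stood at -0.68, -0.88 and -0.85, under the threshold on every day. The change of Wwtr1 minus that of Tead1 was -0.14 ± 0.24 at day 8, within its error. The probes are at chr7:120049844-120049903, chr7:120042204-120042263 and chr7:120043445-120043504 (mm9, plus strand).

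The 2 negative regulators fell as well. Lats2, the kinase that phosphorylates YAP and TAZ, gave 4775, 1654, 1783 and 1898 on one probe and 310, 141, 117 and 107 on the other. Both probes were highest in the control, and the gene changed by -1.33, -1.47 and -1.51 (each ± 0.14). At day 8 the probes stood at -1.41 and -1.61, and their mean was a 2.85-fold fall. Amotl2, the angiomotin family member, gave 4054, 1353, 1575 and 1405. Its changes were -1.58, -1.43 and -1.61 (each ± 0.20), or 3.04-fold at day 8. Set against Yap1, Lats2 changed further by -1.55 ± 0.25 at day 8 and Tead1 by -1.13 ± 0.24. The Lats2 probes are at chr14:58308807-58308866 and chr14:58341225-58341284 (minus strand) and the Amotl2 probe at chr9:102635025-102635084 (plus strand), all on mm9.

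**Figure D3:**
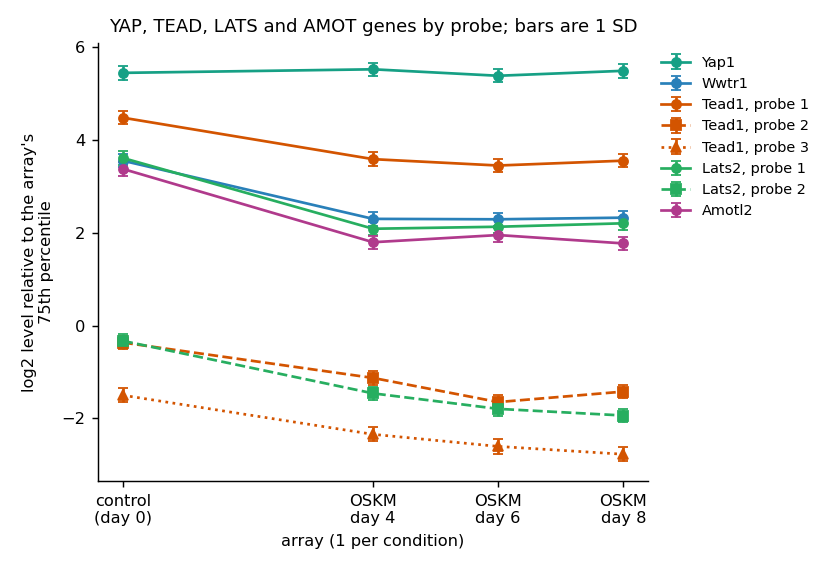
Log2 level of each probe of Yap1, Wwtr1, Tead1, Lats2 and Amotl2 relative to the array's 75th percentile, on the control array and at days 4, 6 and 8, with bars for the scanner error (1 SD). The Yap1 line is level, and the other 7 lines drop by day 4; distances between lines of different probes are not comparable.

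Between the OSKM-CMP arrays most of the genes moved less than 2-fold. From day 4 to day 8, 0 of the 10 fell and 0 rose at least 2-fold, beside 4.09% and 4.94% of all genes. The change over these days was more than 3 times its error for 2 genes, Ctgf at 0.77 and Wisp2 at -0.94 (each ± 0.20). From day 4 to day 6, Wisp2 fell by 1.05 and Cyr61 rose by 1.72, which is 1 gene each way beside 2.65% and 2.84% of all genes. From day 6 to day 8, Cyr61 fell by 1.72 and was the only one of the 10 called, beside 1.00% of all genes that fell and 2.45% that rose. The change of Cyr61 from day 4 to day 8 was 0.00 ± 0.20.

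The day 6 value of Cyr61 rests on 1 spot. On the 4 arrays the mean pixel signal of that spot was 1.01, 1.01, 1.03 and 1.03 times its median, from the control to day 8, and the standard deviation of its pixels was between 9.59% and 12.5% of the mean. Over all 16542 genes, 53 (0.320%) rose at least 2-fold from day 4 to day 6 and fell at least 2-fold from day 6 to day 8, while 97 did the reverse. Of the 53, 9 had every probe well above background on these 3 arrays, out of 14347 such genes. These were Cyr61, Fos, Egr1, Ier2, Nr4a1, Cited4, Capn11, Adam6b and Ifna13, named after their values were seen.

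Fos, Egr1, Ier2 and Nr4a1 are immediate early genes, which are transcribed within minutes of serum or stress without new protein. A list of 14 such genes was therefore read on the same arrays, after these values had been seen, so that it describes the pattern and supports nothing. Of the 13 measured, 9 rose at least 2-fold from day 4 to day 6 and 0 fell, beside 2.84% and 2.65% of all genes. The median change of the 13 was 1.38. From day 6 to day 8, 4 fell and 0 rose (median -0.80), beside 1.00% and 2.45% of all genes. These 4 were Fos, Egr1, Ier2 and Nr4a1, the genes that had prompted the list, so this count was fixed by that choice. They are also among the 9 that rose from day 4 to day 6. Fos changed by 2.19 and then by -1.21, Egr1 by 2.01 and -1.13, and Dusp1 by 1.38 and -0.91. From the control to day 8, 7 of the 13 fell and 1 rose (median -1.34), beside 11.6% and 14.4% of all genes. By the study's methods the infected cells were kept in a medium with serum that was exchanged at fixed intervals. Whether RNA was taken before or after an exchange is not given in the sources used here, and its part in the day 6 values was not tested.

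**Figure D4:**
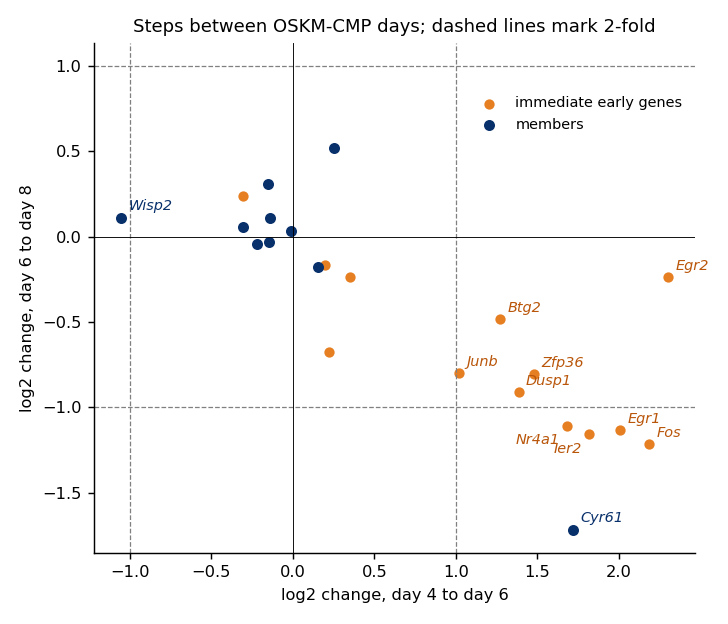
Log2 change from day 4 to day 6 (horizontal) and from day 6 to day 8 (vertical) for the 10 genes and for 13 immediate early genes, a list chosen after the values had been seen; dashed lines mark 2-fold. Cyr61 lies at 1.72 and -1.72, on the side of Fos, Egr1, Ier2 and Nr4a1, and the other members except Wisp2 lie within 2-fold on both axes.

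The genes nearest in pattern were sought among 13666 others with every probe well above background on all 4 arrays, by the distance between the 3 log2 changes from the control. Nearest to Cyr61 was Dusp1, a phosphatase of MAP kinases and an immediate early gene, at a distance of 0.57 and with changes of -3.51, -2.13 and -3.04. Synpr and B3gnt8 followed, each at 1.11, and 0 genes lay within 0.5 of Cyr61. Nearest to Wisp2 was Gdf6, a ligand of the BMP family, at 0.36, with changes of -5.04, -6.14 and -6.36. Tbx20, a cardiac T-box factor, followed at 0.67 and Bmp6, another BMP ligand, at 0.69. Nearest to Ctgf were Pf4, a chemokine best known from platelets, at 0.34, Hsd11b1, which makes active glucocorticoid, at 0.39 and Mogat2, an acyltransferase of lipid synthesis, at 0.41. Tead1 had 716 genes within 0.5, led by Tmem63a, Ostf1 and Capn2 at 0.06 each, against 4 for Ctgf and 1 for Wisp2. Ranked by Pearson's r over the 4 arrays in place of distance, the first 3 genes shared 0 with those named for each of the 4 members, and 484 genes had an r above 0.99 with Ctgf.

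Among 25 genes of Hippo kinases, adaptors and upstream regulators, 5 fell and 2 rose at least 2-fold from the control to day 8, beside 11.6% and 14.4% of all genes, with a median change of -0.23. The furthest falls were Map4k4, a kinase that can activate LATS, at -1.5 ± 0.14, Amotl1, a relative of Amotl2, at -1.42 ± 0.21 and Wwc1, the KIBRA scaffold, at -1.32 ± 0.20. The rises were 2 large cadherins that bind each other, Dchs1 at 5.04 ± 0.26 and Fat4 at 2.61 ± 0.20. The kinases that form the core with LATS2 were within 2-fold. Stk3 and Stk4, which encode MST2 and MST1, changed by 0.02 ± 0.20 and -0.17 ± 0.15, and Lats1 by -0.02 ± 0.21. These 3 were named after their values were seen. Lats2 was thus lower than the control on an array where Lats1 was within its error of it.

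Of 7 other TEAD factors and VGLL cofactors, 5 were measured, and Vgll1 and Vgll2 never rose clearly above background. At day 8, 2 fell and 1 rose, beside the same 11.6% and 14.4% of all genes, with a median of -0.45. Tead4 changed by -1.36 ± 0.25 and Tead3 by -1.18 ± 0.21, both further at day 8 than at day 4, while Vgll4, which competes with YAP for TEAD factors, changed by 1.68 ± 0.20. Tead2 was within 2-fold at -0.30 ± 0.14.

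Other genes described as YAP and TAZ targets went both ways. Of 18 measured, 7 fell, 4 rose and 7 stayed within 2-fold at day 8, and the median was -0.32. Ankrd1, a stretch-responsive muscle ankyrin repeat protein and a common readout of YAP, fell furthest, with changes of -5.44, -6.38 and -7.00 (each ± 0.20) over the days. Nuak2, a kinase related to AMPK, changed by -2.47 ± 0.20 and Foxf2, a forkhead factor of mesenchyme, by -2.30 ± 0.24. Among the rises were Nt5e, the ectonucleotidase CD73, at 2.10 ± 0.21, F3, tissue factor, at 2.00 ± 0.15 and Ccdc80, a secreted matrix protein, at 1.37 ± 0.14. Igfbp3 counts as the fourth rise at 3.06 ± 0.76, but its 2 probes changed by 4.18 and 1.94, and the second was well above background on 1 of the 4 arrays, which was neither the control nor day 8. A list with 7 falls and 4 rises beside background shares of 11.6% and 14.4% is a description of these arrays and not a test of YAP activity.

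Of 10 receptors that bind CCN proteins, 3 fell and 1 rose at day 8, beside 11.6% and 14.4% of all genes, with a median of -0.45. The integrin subunits Itgb5, Itgb1 and Itga5 changed by -1.36 ± 0.20, -1.35 ± 0.14 and -1.31 ± 0.20. Itga6, the integrin subunit through which fibroblasts bind Cyr61, changed the other way, by 1.64 ± 0.14. All 5 CCN ligands had fallen on the same array.

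**Figure D5:**
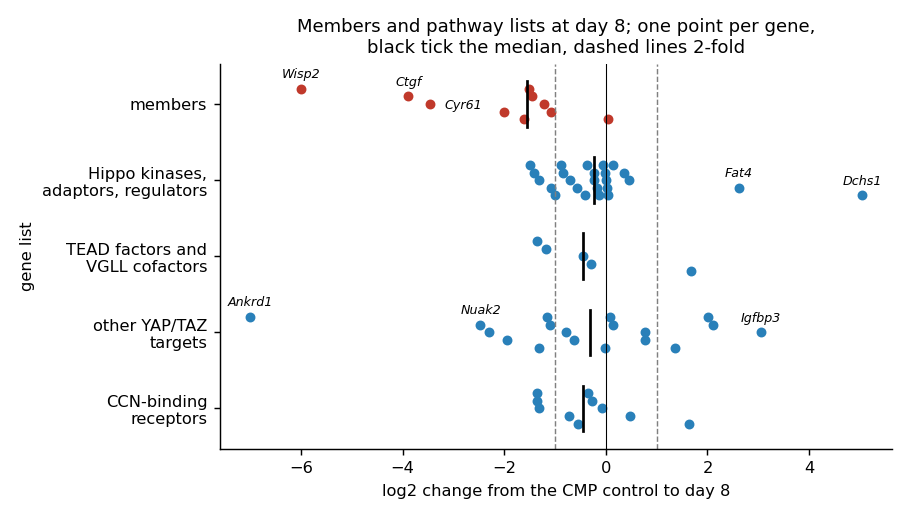
Log2 change from the CMP control to day 8 of the 10 members and of the genes of 4 lists, 1 point a gene; black ticks are medians and dashed lines mark 2-fold. The members' median is -1.56 and those of the lists lie between -0.45 and -0.23; the members were chosen with these values in view.

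The cells' labelled identity and the markers of other cells moved over the same arrays. All 8 mesenchymal markers were well above background on every array, with a summed signal from 725 times the array's 75th percentile in the control to 1172 at day 8. At day 8, 2 of the 8 rose, Ly6a, which encodes Sca-1, by 2.69 and Dcn, the proteoglycan decorin, by 3.06, and 2 fell, Thy1 at -1.78 and Eng at -1.19. Without Dcn the sum went from 650.2 to 548. The 4 measured smooth muscle markers all fell, and their sum went from 601 in the control to 44.9, 28.7 and 26.3. Acta2 changed by -5.09 and Tagln by -4.78, while the defining marker Myh11 was not well above background on these arrays. All 6 adipocyte markers had higher values at day 8, and their sum went from 2.49 to 19.5, 126 and 311. In the control only 1 of the 6, Fabp4, was well above background by every probe, so the rises of Adipoq, Plin1, Cfd and Lep are lower bounds. For Adipoq, Plin1 and Cfd the rise was at least 644.6-fold. For Lep it was at least 1.20-fold, a bound that does not reach 2-fold. The 2 Retn probes changed by 9.53 and 7.01. The first was well above background on 3 of the 4 arrays and the second on all 4. From the control to day 8, sums of the endothelial (1.88 to 1.06), leukocyte (0.479 to 0.798), cardiomyocyte (11.9 to 4.17) and mesothelial (6.21 to 25.0) lists were at most 25.0 on any array, with Laptm5 and Actn2 never well above background. Falls were 3 of 5 endothelial, 1 of 5 leukocyte, 1 of 5 cardiomyocyte and 3 of 5 mesothelial genes, beside 11.6% of all genes. In the same order, rises were 0, 2, 3 and 2, beside 14.4% of all genes. These shares hold for the other marker lists too. The 3 cardiomyocyte rises, Myh6, Tnni3 and Myl7, were not well above background in the control, with lower bounds of 1.75-, 3.28- and 2.70-fold. The leukocyte fall, Tyrobp, was not well above background at day 8, with a lower bound of 1.57-fold. On the day 8 array the smooth muscle genes were lower than the control and the adipocyte genes higher, while Ctgf, Cyr61, Wisp2 and Ankrd1 were lower. From day 4 to day 8 the median change was 6.64 for the adipocyte list, -0.76 for the smooth muscle list and 0.00 for the 5 CCN genes. The CCN genes ran from -0.94 for Wisp2 to 0.77 for Ctgf, and the smooth muscle genes from -1.19 to -0.18. Ankrd1 changed by -1.56 over these days. The part of the smooth muscle or adipocyte genes in the falls of Ctgf, Cyr61, Wisp2 and Ankrd1 was not tested.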

How the data were processed

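RNA from untreated CMPs and from OSKM-CMPs at days 4, 6 and 8 was labelled with Cy3 and hybridised to Agilent SurePrint G3 Mouse GE arrays (4 arrays on 1 slide, 1 scan). The authors extracted a background-subtracted intensity with its error and flags for each of 62976 spots with Feature Extraction (10.7.3.1 in the file headers, 9.5.3 in the submitters' processing notes). The deposited GeneSpring table holds the same log2 values, each array shifted by a constant, within 0.01.

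Here, 3671 control spots and the outlier spots (87 to 106 an array) were left out, log2 intensities were averaged per probe, and the array's 75th percentile was subtracted. A probe was kept if the flag put it well above background somewhere, which held for 35540. Gene names came from the files, matched to RefSeq GRCm38.p6 (used for names and promoters only): 20456 kept probes by symbol, 2385 by synonym, and 12699 without a match. A gene is the mean of its kept probes (4995 of 16542 genes had more than 1) and is above background only if all are. Probe positions are mm9, and no annotation of that build was used here. Errors are the software's, propagated, and the number of arrays limits the precision.

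The members and lists were chosen with earlier results of these data known, and the immediate early genes after the day 6 values were seen. All members are named. From each pathway list, up to 3 of the furthest rises and falls at day 8 are named, if past 2-fold, detected by every probe both in the control and at day 8, and of 1 direction over the 3 days. Other names were added after their values were seen. With 1 array a condition, no test was made. The alternatives were normexp (offset 50) with quantile normalization, quantile normalization, the array median, the authors' values, other filters and a floor on dim probes, the brightest probe, names by accession, and thresholds of 1.5-fold and 3-fold. The steps were tested on simulated data. Python 3.11.15, numpy 2.4.6, pandas 2.3.3, matplotlib 3.10.9, R 4.3.3 and limma 3.58.1 were used.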

Additional observations from a re-analysis of the deposited data

How the results depend on the processing

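Of 270 changes of the 10 genes from the control under 9 alternatives, 235 moved by less than their own error, 35 moved by more and 0 of the called changes turned. The array median as the scale gave 12 of the 35, normexp with quantile normalization 14, quantile normalization 7 and the brightest probe 2. The other settings each left 30 of 30 within the error, and they could move little. With all 14 member probes well above background on all 4 arrays, the filters and the floor changed no value. Names by accession gave the same values, and the authors' values differ by a constant for each array. The brightest probe can move only genes with several probes. The array median shifts all genes by -0.14, -0.13 and -0.27 at days 4, 6 and 8, and the members' values move with it. At 3-fold in place of 2-fold, 4 members fell at day 4, 4 at day 6 and 5 at day 8. At day 8, the falls among Hippo genes were 3 with normexp, 3 with quantile normalization, 8 at 1.5-fold and 0 at 3-fold. Those of TEAD factors and cofactors were 0 with normexp and 0 at 3-fold, those of YAP targets 4 at 3-fold, and those of CCN receptors 0 at 3-fold. Shares of all genes are given only at 2-fold with the main processing. The counts at other thresholds or settings thus have no background beside them, and no list can be set apart by them. With the array median, the medians at day 8 were -0.49 for Hippo genes, -0.71 for TEAD factors and cofactors, -0.58 for YAP targets and -0.72 for receptors, and with the brightest probe that of receptors was -0.24. The cause of these moves, beyond the shift and the threshold themselves, was not tested. No paired analysis was possible because the 4 conditions have a single array each, and none could be left out. The software's error grows as probes dim, from 0.20 for the bright probe of Tead1 to 0.21 for its dimmest at day 8 and 0.76 for Igfbp3.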
